A study of Homo sapiens with 24 samples.

Results

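The genes described here are 10 that androgen lowered in LREX' prostate cancer cells: CAMK2N1, BCHE, CCN3, DDC, ACP3, ST8SIA4, BDNF, MUC13, GCNT3 and LTN1. They were chosen by the log2 difference between cells given dihydrotestosterone (DHT, the most potent natural androgen) and vehicle cells in earlier results of these arrays, and their probes were taken by gene symbol. All 10 genes had at least 1 probe past the detection filter, with 18 of their 22 probes passing, among 24607 passing probes of 47323 on the array and 12895 named genes of 20046. LREX' is a human prostate cancer line derived from a tumour that grew out under the antiandrogen enzalutamide, and every group is that single line.

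All cells were kept in charcoal-stripped medium, which holds little steroid, and treated for 8 h, so the vehicle cells were also steroid-deprived. The groups with both drugs received enzalutamide with dexamethasone (Dex, a synthetic glucocorticoid) at 100 nM, enzalutamide with Dex at 10 nM, or enzalutamide with DHT at 1 nM. The others received Dex at 100 nM, Dex at 10 nM, DHT at 1 nM, enzalutamide alone at 10 µM, or vehicle (DMSO); no enzalutamide dose is given for the combinations. Each of the 8 groups had 3 cultures, described as biological triplicates, and each culture had its own beadchip array. Median signals ran from 59.4 to 69.5, with 19463 to 21017 probes detected per array, and the median standard error (SE) of a log2 difference was 0.15. The luminal markers FOXA1, HOXB13, KRT8, KRT18 and EPCAM were detected on 24 of 24 arrays, while the basal keratins KRT5 and KRT14 and the endothelial genes PECAM1 and CDH5 were detected on 0. As checks of the drugs, the induced genes TMPRSS2, SLC45A3, FKBP5 and KLK2 were called higher with DHT in 4 of 4 cases, lower when enzalutamide was added to DHT in 4 of 4, and in 0 of 4 when it was added to Dex 100 nM.

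The androgen receptor and the glucocorticoid receptor are steroid-activated transcription factors of the same family that recognise the same DNA element, a palindrome of the hexamer AGAACA. Both are best known for switching genes on, but each also lowers a smaller set of transcripts, by routes that need not involve binding at the gene itself. Enzalutamide occupies the androgen receptor's steroid pocket and blocks it, and it does not block the glucocorticoid receptor. In castration-resistant prostate cancer the glucocorticoid receptor can take over part of the androgen receptor's programme.

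The genes have diverse roles. BDNF encodes brain-derived neurotrophic factor, a secreted ligand of the TrkB receptor, and CCN3 (once NOV) a secreted matricellular protein. ACP3 is prostatic acid phosphatase, a secretory product of luminal cells, and BCHE is butyrylcholinesterase, a secreted choline ester hydrolase. DDC is aromatic L-amino acid decarboxylase, which makes dopamine and serotonin. CAMK2N1 inhibits the calcium/calmodulin-dependent kinase CaMKII. ST8SIA4 is a Golgi polysialyltransferase, GCNT3 a Golgi enzyme that branches mucin-type O-glycans, and MUC13 a transmembrane mucin. LTN1 (listerin) is the ubiquitin ligase of ribosome quality control, which tags unfinished chains on stalled ribosomes.

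With DHT, all 10 genes were lower than with vehicle on every array, by 0.29 to 1.25 on the log2 scale of normalized intensity (median -0.78, against -0.01 over all probes tested). Because the genes were picked for this difference, its values are a description and carry no test; probes lower with no overlap between the DHT and vehicle arrays made up 8.34% of those tested. BDNF stood at 8.99, 8.68 and 8.82 log2 units on the DHT arrays, against 10.07, 10.03 and 10.14 on the vehicle arrays. That was the largest difference of the 10, -1.25 ± 0.10 (SE, n = 3 arrays per group, as for every log2 difference here), or 2.37-fold lower. LTN1 read 8.76, 8.71 and 8.55 with DHT, against 9.77, 9.78 and 9.91 with vehicle, a difference of -1.15 ± 0.12. The low glycan genes lay just above the detection limit with DHT. GCNT3 had 5.10, 5.30 and 4.79 with DHT, the last of them not detected above the negative control beads, against 6.28, 6.28 and 6.19 with vehicle (-1.19 ± 0.17). ST8SIA4 had 5.01, not detected, 5.09 and 5.47 with DHT, against 6.31, 6.11 and 6.06 with vehicle (-0.97 ± 0.19). MUC13 was detected on every array, at 5.28, 5.53 and 5.73 with DHT, against 6.52, 6.82 and 6.51 with vehicle (-1.10 ± 0.17). For genes this close to background the offset added before taking logs makes a log2 difference smaller than the change in transcript. Less RNA per cell and fewer cells carrying the transcript cannot be told apart in bulk samples.

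The differences of the remaining genes were smaller. CAMK2N1 read 10.19, 10.12 and 10.08 with DHT, against 10.84, 10.68 and 10.68 with vehicle (-0.60 ± 0.09, 1.52-fold lower). CCN3 read 6.83, 6.97 and 6.81 with DHT, against 7.42, 7.29 and 7.60 with vehicle (-0.57 ± 0.10). BCHE read 7.42, 7.51 and 7.69 with DHT, against 8.13, 8.00 and 7.95 with vehicle (-0.48 ± 0.10). The secretory and catecholamine enzymes moved least. ACP3 had 8.24, 8.42 and 8.21 with DHT, against 8.78, 8.65 and 8.66 with vehicle (-0.41 ± 0.08). DDC had 10.81, 10.97 and 10.93 with DHT, against 11.17, 11.22 and 11.17 with vehicle (-0.29 ± 0.06, 1.22-fold lower).

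**Figure D1:**
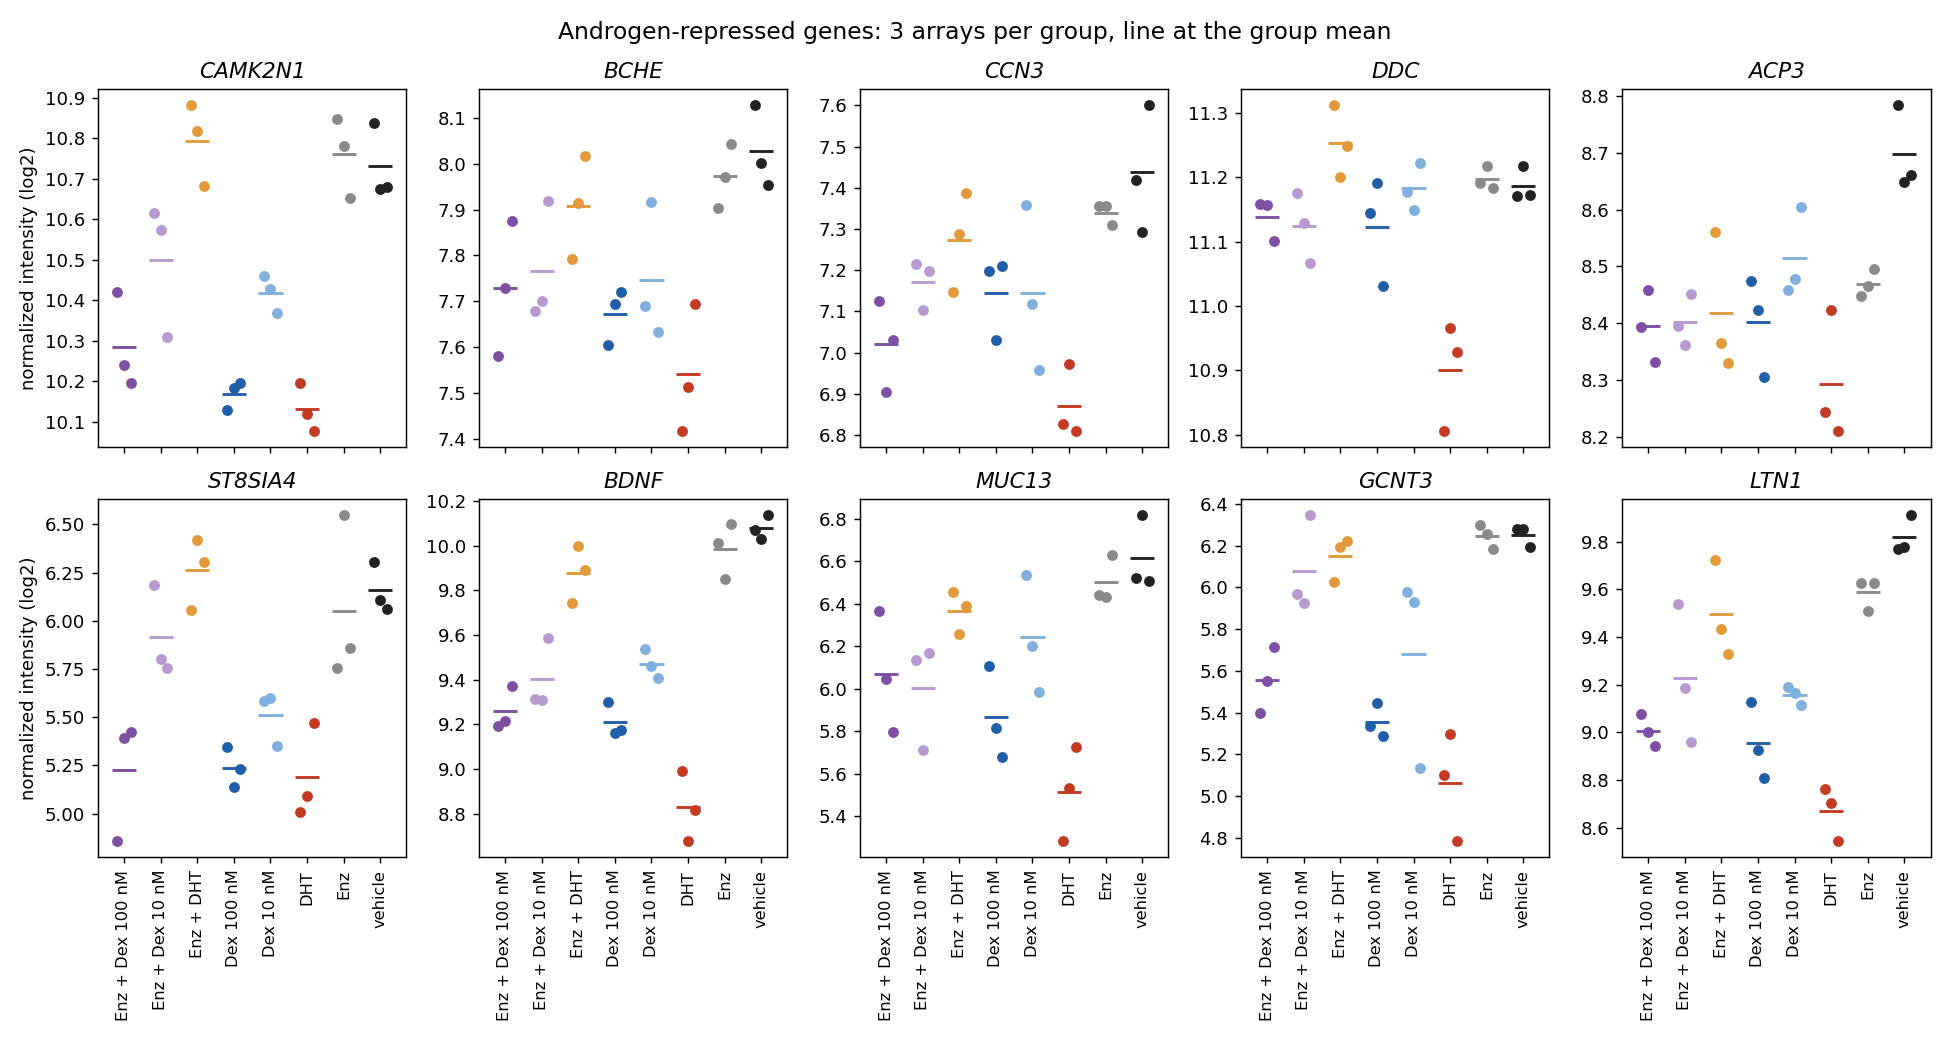
Normalized log2 intensity of each of the 10 genes (vertical axis, 1 panel per gene) on each of the 24 arrays, by group (horizontal axis); points are arrays and bars are group means. In every panel the 3 DHT arrays lie below the 3 vehicle arrays, and in the BDNF panel the enzalutamide plus DHT arrays (9.74 to 10.00) lie near the vehicle arrays while the enzalutamide plus Dex 100 nM arrays (9.20 to 9.37) lie lower.

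Promoter windows of 300 bases (250 before and 50 after the transcription start) were available from RefSeq, build GRCh38.p14, for 8 of the 10 genes, in 13 windows. They were searched on both strands for the hexamer AGAACA, and for the palindrome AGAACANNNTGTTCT with at most 2 mismatches over its 12 fixed letters. The hexamer was present in 3 of the 13 windows, and in 14.8% of 35116 promoters of the same length. The palindrome was matched in 1 of the 13, at 2 mismatches, and in 1.41% of all promoters. The 4 windows with a match are shown so that its place can be seen, with the matched letters in capitals, and the LTN1 window, with no match, is shown beside them. BDNF has 5 annotated windows; those shown are the minus-strand window chr11:27720730-27721029, whose capitals mark the palindrome match 107 bases before the start, and the minus-strand window chr11:27659609-27659908, whose hexamer lies 32 bases after its start. The MUC13 window is chr3:124934702-124935001 on the minus strand, with its hexamer 27 bases after the start. The GCNT3 window is chr15:59611533-59611832 on the plus strand, with its hexamer 155 bases before the start, and the LTN1 window is chr21:28992828-28993127 on the minus strand. A match describes the letters of these windows, and binding of either receptor was not measured.
BDNF, palindrome window: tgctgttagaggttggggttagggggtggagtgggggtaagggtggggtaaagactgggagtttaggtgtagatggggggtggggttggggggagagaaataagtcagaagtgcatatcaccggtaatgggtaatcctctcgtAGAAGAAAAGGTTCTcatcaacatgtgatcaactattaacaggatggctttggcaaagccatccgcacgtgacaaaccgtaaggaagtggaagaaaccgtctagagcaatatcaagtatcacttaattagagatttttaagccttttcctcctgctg
BDNF, hexamer window: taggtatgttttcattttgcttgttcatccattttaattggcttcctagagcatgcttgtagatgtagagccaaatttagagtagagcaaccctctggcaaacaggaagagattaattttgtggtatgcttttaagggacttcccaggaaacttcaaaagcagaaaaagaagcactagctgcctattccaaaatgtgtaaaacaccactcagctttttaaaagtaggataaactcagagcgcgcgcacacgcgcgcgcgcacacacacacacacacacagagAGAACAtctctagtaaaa
MUC13: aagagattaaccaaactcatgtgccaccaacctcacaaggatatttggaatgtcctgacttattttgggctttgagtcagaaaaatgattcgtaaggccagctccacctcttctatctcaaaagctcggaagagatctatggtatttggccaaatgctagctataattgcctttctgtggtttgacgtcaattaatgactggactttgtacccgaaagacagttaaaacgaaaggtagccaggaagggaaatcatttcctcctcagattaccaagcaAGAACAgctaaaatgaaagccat
GCNT3: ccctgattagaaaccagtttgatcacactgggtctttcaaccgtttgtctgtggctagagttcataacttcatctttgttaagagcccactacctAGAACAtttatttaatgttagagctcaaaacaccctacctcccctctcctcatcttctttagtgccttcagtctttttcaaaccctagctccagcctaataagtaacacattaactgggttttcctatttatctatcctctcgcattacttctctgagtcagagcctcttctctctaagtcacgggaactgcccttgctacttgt
LTN1: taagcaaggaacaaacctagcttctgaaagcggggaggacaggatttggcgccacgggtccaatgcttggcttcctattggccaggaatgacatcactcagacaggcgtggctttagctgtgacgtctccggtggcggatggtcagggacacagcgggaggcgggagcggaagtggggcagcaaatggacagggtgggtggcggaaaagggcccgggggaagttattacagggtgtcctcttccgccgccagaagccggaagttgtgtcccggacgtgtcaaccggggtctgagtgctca

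Dex at 100 nM lowered 7 of the 10 genes at an adjusted p under 0.05 (CAMK2N1, ACP3, ST8SIA4, BDNF, MUC13, GCNT3 and LTN1), where 1.05% of all probes were called lower. The median difference was -0.66, against -0.01 over all probes, and 9 of the 10 genes were lower with no overlap between groups, as were 9.66% of all probes. BDNF had 9.30, 9.16 and 9.18 with Dex 100 nM, against the vehicle values above, a difference of -0.86 ± 0.10 (1.82-fold lower, adjusted p = 7.07e-06). LTN1 had 9.13, 8.93 and 8.81, also -0.86 ± 0.12 (adjusted p = 0.000131). CAMK2N1 had 10.13, 10.18 and 10.20, all beneath its vehicle arrays (-0.56 ± 0.09, adjusted p = 0.000405). The 3 glycan and mucin genes fell as well. GCNT3 had 5.33, 5.44 and 5.29 (-0.90 ± 0.17, adjusted p = 0.00373), ST8SIA4 had 5.35, 5.14 and 5.23 (-0.92 ± 0.19, adjusted p = 0.00707), and MUC13 had 6.11, 5.81 and 5.68 (-0.75 ± 0.17, adjusted p = 0.0147). These Dex comparisons use the same vehicle arrays as the DHT difference that chose the genes, so an unusual vehicle array would move both.

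The remaining genes moved less. DDC, at 11.14, 11.19 and 11.03 with Dex 100 nM, overlapped its vehicle arrays and differed by -0.06 (95% interval -0.19 to 0.07, adjusted p = 0.749). BCHE, at 7.61, 7.69 and 7.72, differed by -0.35 ± 0.10 and did not pass (adjusted p = 0.0649), although its arrays lay below all vehicle arrays. CCN3, at 7.20, 7.03 and 7.21, differed by -0.29 ± 0.10 (adjusted p = 0.164). ACP3, at 8.47, 8.42 and 8.31, passed narrowly (-0.30 ± 0.08, adjusted p = 0.0429). ACP3 no longer passed in 5 of the 6 fits that each omitted 1 array (adjusted p 0.0737 to 0.199). The MUC13 call was lost without vehicle replicate 2, Dex 100 nM replicate 2 or Dex 100 nM replicate 3 (0.0642 to 0.0931).

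At 10 nM, Dex lowered 2 of the 10, BDNF and LTN1, where 0.313% of all probes were called lower. BDNF had 9.54, 9.46 and 9.41 with Dex 10 nM (-0.61 ± 0.10, 1.53-fold lower than vehicle, adjusted p = 0.00134). LTN1 had 9.19, 9.17 and 9.12 (-0.66 ± 0.12, adjusted p = 0.00567). These differences too use the vehicle arrays that chose the genes. All 10 genes averaged below vehicle (median -0.34), and the 8 that did not pass ranged from -0.65 for ST8SIA4 (adjusted p = 0.134) to -0.00 for DDC (95% interval -0.13 to 0.13, adjusted p = 0.992). CAMK2N1, at 10.46, 10.43 and 10.37 with Dex 10 nM, differed from vehicle by -0.31 ± 0.09 with an adjusted p of 0.109.

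Between the Dex doses, 0 of the 10 differed by the adjusted limma test, with 0.0284% of all probes called lower at 100 nM. At an unadjusted p under 0.05 there were 3, beside 1843 of all probes (7.49%) in either direction, and all 3 were lower at 100 nM: CAMK2N1 by -0.25 ± 0.09, BDNF by -0.26 ± 0.10 and MUC13 by -0.38 ± 0.17. The median difference of the 10 genes was -0.23. These groups share no array with the DHT and vehicle groups.

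Doses and receptors differ between the hormones, so a direct comparison holds for the treatments as given. Dex 10 nM left 3 of the 10 genes higher than DHT did, where 0.589% of all probes were called higher. These were BDNF (0.64 ± 0.10, adjusted p = 0.000699), MUC13 (0.73 ± 0.17, adjusted p = 0.0313) and DDC (0.28 ± 0.06, adjusted p = 0.0209). The DDC call was lost on leaving out any of 5 of 6 arrays (adjusted p up to 0.131) and the MUC13 call on leaving out any of 4 (up to 0.182). Dex 100 nM and DHT were called different in 0 of the 10, where 0.866% of all probes were called higher with Dex. At an unadjusted p under 0.05 there were 4, beside 2342 of all probes (9.52%) in either direction. All 10 averaged higher with Dex 100 nM than with DHT, with BDNF at 0.38 ± 0.10 (adjusted p = 0.0585) and DDC at 0.22 ± 0.06 (adjusted p = 0.0992). Both comparisons use the DHT arrays that chose the genes.

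Adding enzalutamide to DHT raised 8 of the 10 genes against DHT alone, where 0.654% of all probes were called higher, with a median difference of 0.74 against 0.01 over all probes. The arrays of enzalutamide with DHT lay above all DHT arrays in 9 of the 10, as they did for 8.05% of all probes. This comparison shares the DHT arrays with the difference that chose the genes. BDNF had 9.74, 10.00 and 9.89 with enzalutamide and DHT, 1.05 ± 0.10 above DHT (2.07-fold, adjusted p = 6.66e-07). GCNT3 had 6.03, 6.20 and 6.22 (1.09 ± 0.17, adjusted p = 0.00062), and ST8SIA4 had 6.06, 6.42 and 6.31 (1.07 ± 0.19, adjusted p = 0.00201), so both were again detected on all 3 arrays. LTN1 had 9.73, 9.44 and 9.33 (0.83 ± 0.12, adjusted p = 0.000273). CAMK2N1 had 10.88, 10.82 and 10.68 (0.66 ± 0.09, adjusted p = 6.65e-05). MUC13 had 6.46, 6.26 and 6.39 (0.85 ± 0.17, adjusted p = 0.00568). DDC had 11.31, 11.20 and 11.25 (0.35 ± 0.06, adjusted p = 0.00182). These arrays lay above every DHT array in each of those genes.

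CCN3, at 7.15, 7.29 and 7.39 with enzalutamide and DHT, rose by 0.40 ± 0.10 (adjusted p = 0.0358), but did not pass in 4 of the 6 fits that each omitted 1 array (0.118 to 0.187). BCHE, at 7.79, 7.91 and 8.02, differed by 0.37 ± 0.10 (adjusted p = 0.064). ACP3 was the exception among the 10. Its arrays, at 8.56, 8.36 and 8.33, overlapped the DHT arrays, with a difference of 0.13 (95% interval -0.04 to 0.29, adjusted p = 0.655).

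Adding enzalutamide to Dex gave a different picture. At 100 nM, 0 of the 10 genes and 0% of all probes passed the adjusted limma test; at an unadjusted p under 0.05 there were 0 of the 10 genes and 1865 probes. Differences from Dex 100 nM alone lay between -0.13 and 0.20, and all 10 overlapped. BDNF had 9.20, 9.21 and 9.37 with enzalutamide and Dex 100 nM, against 9.30, 9.16 and 9.18 with Dex 100 nM alone (0.05, 95% interval -0.16 to 0.25). CAMK2N1 had 10.42, 10.24 and 10.20, against 10.13, 10.18 and 10.20 (0.12, interval -0.07 to 0.30). LTN1 had 9.08, 9.0 and 8.94, against 9.13, 8.93 and 8.81 (0.05, interval -0.20 to 0.31). For BDNF, LTN1 and CAMK2N1 the upper bounds lie beneath the rises seen with DHT, which have errors of their own and use the DHT arrays that chose the genes. The bounds are wider for the dim genes, up to 0.38 for ST8SIA4 and 0.56 for MUC13 and GCNT3. The rises seen with DHT were 1.07 for ST8SIA4, 0.85 for MUC13 and 1.09 for GCNT3, each with its own error. The direct test of the difference, given below, did not call ST8SIA4, MUC13 or GCNT3.

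At Dex 10 nM, 0 of the 10 genes and 0% of all probes passed, with 2 genes and 1513 probes at an unadjusted p under 0.05. The 2 were ST8SIA4, at 6.18, 5.80 and 5.76 with enzalutamide and Dex 10 nM, against 5.59, 5.60 and 5.35 with Dex 10 nM (0.40, interval 0.01 to 0.80), and GCNT3, at 5.97, 5.92 and 6.34 against 5.98, 5.93 and 5.13 (0.40, interval 0.04 to 0.76). For GCNT3 the groups overlapped, and 1 Dex 10 nM array was lower than the others. BDNF, at 9.31, 9.31 and 9.59 with both drugs, against 9.54, 9.46 and 9.41 with Dex 10 nM, overlapped.

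The difference between these enzalutamide effects was tested directly. Enzalutamide's effect beside Dex 100 nM was below its effect beside DHT in 3 of the 10 genes, where 0.175% of all probes were called that way. These were BDNF (-1.0 ± 0.14, adjusted p = 0.000308), LTN1 (-0.77 ± 0.17, adjusted p = 0.0348) and CAMK2N1 (-0.55 ± 0.12, adjusted p = 0.0385). The sign was negative in all 10 (median -0.60), and 9 had an unadjusted p under 0.05, as did 2040 of all probes (8.29%) in either direction. The LTN1 call was lost on leaving out any of 9 of the 12 arrays (adjusted p 0.0529 to 0.105) and the CAMK2N1 call on leaving out any of 10 (0.0507 to 0.109), while the adjusted p of BDNF stayed at or under 0.00158. The DHT arrays enter this contrast too.

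**Figure D2:**
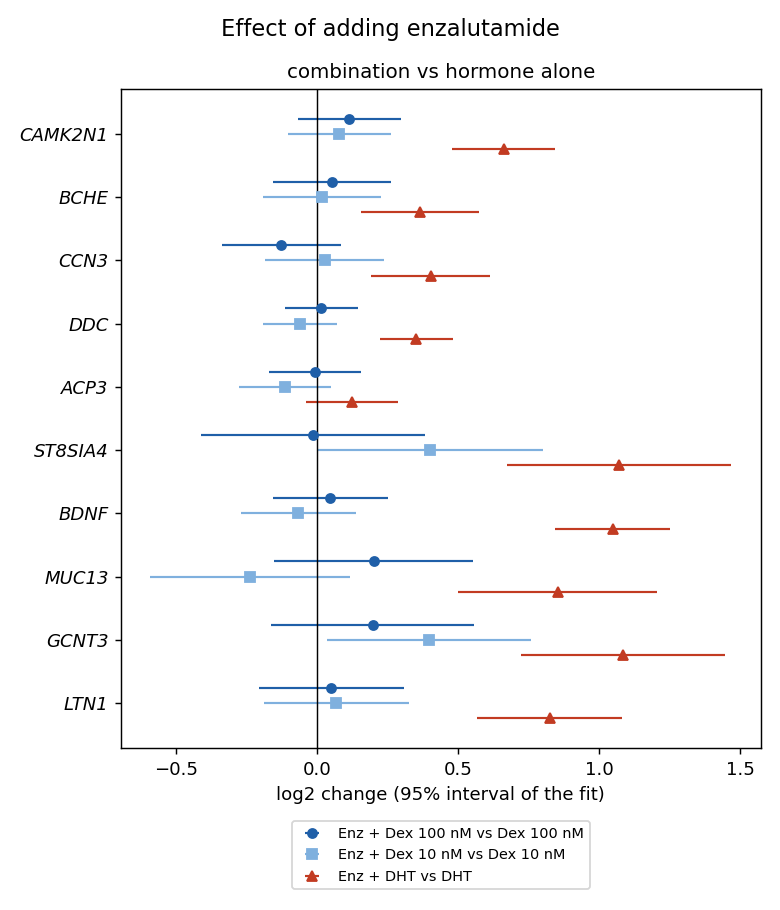
Log2 difference made by enzalutamide (horizontal axis) for each of the 10 genes when added to Dex 100 nM, Dex 10 nM or DHT; points are differences of group means over 3 arrays each, and bars are 95% intervals of the fit. The BDNF difference is 1.05 beside DHT and 0.05 beside Dex 100 nM.

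Enzalutamide alone changed 0 of the 10 genes against vehicle and 0% of all probes by the adjusted limma test, with 1 gene and 1679 probes at an unadjusted p under 0.05. That gene was ACP3, at 8.45, 8.47 and 8.50 with enzalutamide, against 8.78, 8.65 and 8.66 with vehicle (-0.23 ± 0.08, adjusted p = 0.636). Enzalutamide alone was compared with the vehicle arrays that chose the genes, so a lower value with enzalutamide is partly built in. BDNF had 10.01, 9.85 and 10.10 with enzalutamide, which overlapped its vehicle arrays (-0.09 ± 0.10). DHT added on top of enzalutamide likewise passed in 0 of the 10 and in 0% of all probes, with 0 genes and 894 probes at an unadjusted p under 0.05, and differences from enzalutamide alone of -0.13 to 0.21.

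The response to Dex under enzalutamide uses no array of the DHT or vehicle groups. Dex 100 nM lowered 5 of the 10 genes against enzalutamide alone, where 0.504% of all probes were called lower, with a median of -0.45 against -0.01 over all probes. In 9 of the 10 the groups did not overlap, as in 7.97% of all probes. BDNF had 9.20, 9.21 and 9.37 with enzalutamide and Dex 100 nM, against 10.01, 9.85 and 10.10 with enzalutamide (-0.72 ± 0.10, 1.65-fold lower, adjusted p = 9.01e-05). CAMK2N1 had 10.42, 10.24 and 10.20, against 10.85, 10.78 and 10.65 (-0.47 ± 0.09, 1.39-fold lower, adjusted p = 0.00322). LTN1 had 9.08, 9.0 and 8.94, against 9.63, 9.51 and 9.63 (-0.58 ± 0.12, adjusted p = 0.0113). In these 3 genes every combined array lay below every enzalutamide array. ST8SIA4 had 4.86, not detected, 5.39 and 5.42, against 5.75, 6.55 and 5.86 (-0.83 ± 0.19, adjusted p = 0.0229). GCNT3 had 5.40, 5.55 and 5.71, against 6.30, 6.25 and 6.19 (-0.69 ± 0.17, adjusted p = 0.0406). Those glycan genes did not overlap between the groups either.

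The calls differ in how far they depend on single arrays. The BDNF and CAMK2N1 calls held when each of the 6 arrays was left out, with adjusted p-values up to 0.0012 and 0.0263. The ST8SIA4 call was lost without enzalutamide plus Dex 100 nM replicate 1 or enzalutamide replicate 2 (up to 0.146), the LTN1 call without replicate 3 of either group (up to 0.0557), and the GCNT3 call without any single array (0.0525 to 0.17). Among the 5 that did not pass, MUC13 differed by -0.43 ± 0.17 (adjusted p = 0.295), CCN3 by -0.32 ± 0.10 (0.142), BCHE by -0.24 ± 0.10 (0.329), ACP3 by -0.08 ± 0.08 (0.819) and DDC by -0.06 ± 0.06 (0.824). With Dex 10 nM under enzalutamide, 1 of the 10 fell, BDNF, at 9.31, 9.31 and 9.59 against 10.01, 9.85 and 10.10 (-0.58 ± 0.10, 1.5-fold lower, adjusted p = 0.00244), where 0.0935% of all probes were called lower.

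**Figure D3:**
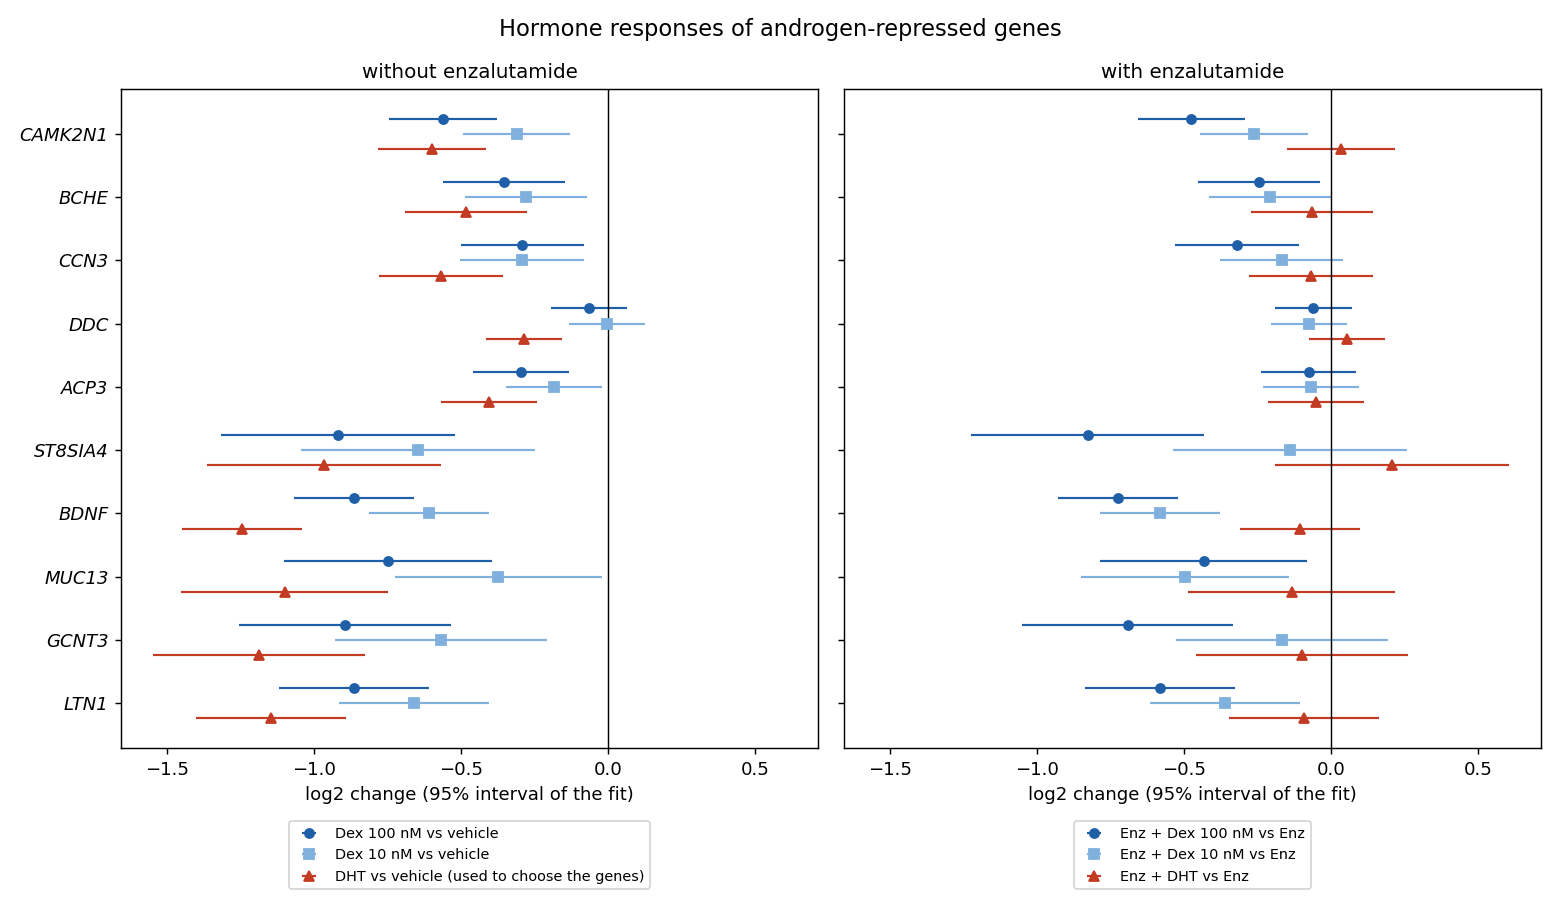
Log2 change (horizontal axis) of each of the 10 genes with Dex 100 nM, Dex 10 nM and DHT, against vehicle (left) and, with enzalutamide present throughout, against enzalutamide alone (right); points are differences of group means over 3 arrays each, and bars are 95% intervals of the fit. The BDNF change with Dex 100 nM is -0.86 on the left and -0.72 on the right, and the intervals for DDC with Dex 100 nM span 0 in both panels.

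Whether Dex acted differently with and without enzalutamide was tested as an interaction. The interaction holds the vehicle arrays that chose the genes. It passed in 0 of the 10 genes and 0% of all probes at 100 nM, with 0 genes and 1662 probes at an unadjusted p under 0.05. The interval of this difference was -0.15 to 0.43 for BDNF and -0.17 to 0.35 for CAMK2N1, so values within those bounds are not excluded. At 10 nM it also passed in 0 of the 10 and 0% of all probes, with 0 genes and 1642 probes unadjusted. With both hormones under enzalutamide, 4 of the 10 genes were lower with Dex 100 nM than with DHT, where 0.398% of all probes were called lower. These were CAMK2N1 (-0.51 ± 0.09, adjusted p = 0.0017), ST8SIA4 (-1.04 ± 0.19, adjusted p = 0.0032), BDNF (-0.62 ± 0.10, adjusted p = 0.00065) and LTN1 (-0.49 ± 0.12, adjusted p = 0.043). The LTN1 call was lost on leaving out any of 5 of the 6 arrays (0.0792 to 0.236).

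The order of the 8 group means was read for each gene from its arrays. DHT had the lowest mean in all 10. The genes were chosen for being lower with DHT than with vehicle, so a low place for DHT is partly built in. For BDNF the order upwards was DHT, Dex 100 nM, enzalutamide with Dex 100 nM, enzalutamide with Dex 10 nM, Dex 10 nM, enzalutamide with DHT, enzalutamide and vehicle. Of these neighbours, DHT did not overlap Dex 100 nM and Dex 10 nM did not overlap enzalutamide with DHT, while the other neighbours overlapped. For CAMK2N1 the order was DHT, Dex 100 nM, enzalutamide with Dex 100 nM, Dex 10 nM, enzalutamide with Dex 10 nM, vehicle, enzalutamide and enzalutamide with DHT, and among neighbours only enzalutamide with Dex 10 nM and vehicle did not overlap. For DDC only DHT stood apart from its neighbour in the order. The 8 group means of the genes ran together, with 45 pairwise correlations from 0.56 to 0.99 (median 0.89). Over the 6 groups without DHT and vehicle they ran from 0.15 to 0.98 (median 0.84). The first set of correlations holds the DHT and vehicle groups that chose the genes, so running together there is partly built in. All points share the same arrays and normalization, so these are descriptions.

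Genes with several probes allowed the readings to be compared within a gene. For LTN1, all 3 probes read lower with DHT, by -1.15, -0.92 and -1.28, and the probe ILMN_3243686 was also called lower with Dex 100 nM (-0.82 ± 0.09, adjusted p = 2.57e-06) and with Dex 100 nM under enzalutamide (-0.70 ± 0.09, adjusted p = 2.58e-05). That probe was also called higher with Dex 100 nM than with DHT (0.47 ± 0.09, adjusted p = 0.00426), which the brighter LTN1 probe was not. The third, ILMN_2077504, differed with Dex 100 nM by -0.69 ± 0.20 (adjusted p = 0.0741). BDNF had 7 probes, of which 4 passed the filter. Besides the probe used above, ILMN_1751276, ILMN_1761910 and ILMN_1809543 were also called lower with Dex 100 nM (adjusted p = 0.00629 and 0.00167). They were detected on 2 of 3 and on 1 of 3 Dex 100 nM arrays, against 3 of 3 vehicle arrays each, so the size of their change is not given. ILMN_1706644 was detected on 4 of 24 arrays and differed with Dex 100 nM by -0.09 ± 0.19, and the other 3 were detected on 0. For ST8SIA4, ILMN_1756937 read -1.04 with DHT and -0.74 with Dex 100 nM (adjusted p = 0.0528), while ILMN_2394161, designed to another transcript, read -0.14 and -0.26. The 2 BCHE probes disagreed: ILMN_2176592 read -0.48 with DHT, and ILMN_1685641, detected on 24 of 24 arrays, read -0.11 ± 0.17 with DHT and -0.03 ± 0.17 with Dex 100 nM. The BCHE values above therefore rest on 1 of 2 probes.

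**Figure D4:**
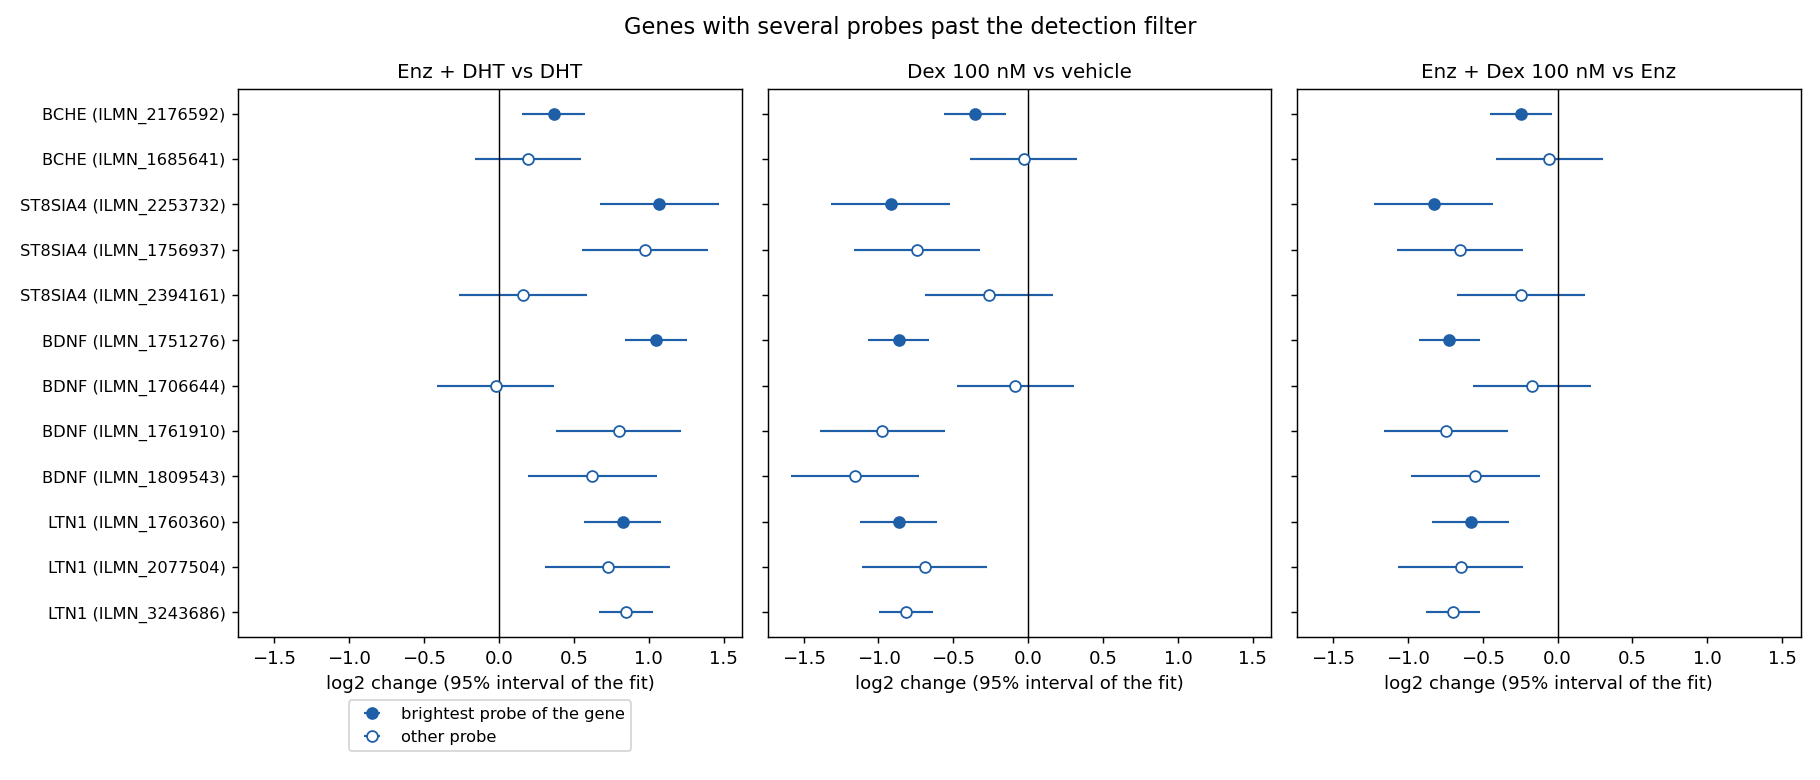
Log2 changes (horizontal axis) of each probe of the 4 genes with several probes past the filter, for enzalutamide with DHT against DHT (left), Dex 100 nM against vehicle (middle) and enzalutamide with Dex 100 nM against enzalutamide (right); filled points are the brightest probe of a gene, and bars are 95% intervals of the fit over 3 arrays per group. The LTN1 probes lie together, whereas 1 BCHE probe, 1 ST8SIA4 probe and 1 BDNF probe lie nearer 0 than the others of the same gene.

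Family members and partners of the 10 genes, on a list of 55 of which 26 were measured, were called lower with neither hormone. With DHT 0 of the 26 were called lower and 2 higher, with Dex 100 nM 0 lower and 3 higher, and with Dex 100 nM under enzalutamide 0 lower and 3 higher. Of all 24607 probes, 247 were called lower and 373 higher with DHT, and 259 lower and 457 higher with Dex 100 nM. With Dex 100 nM under enzalutamide, 124 were lower and 361 higher. At shares this low, 0 lower among 26 says little about the relatives. GCNT1, the core 2 branching enzyme related to GCNT3, rose by 0.95 ± 0.09 with DHT (adjusted p = 4.96e-07) and by 0.37 ± 0.09 with Dex 100 nM (adjusted p = 0.0203), opposite to GCNT3. MAOA, which degrades the monoamines that DDC makes, rose by 0.50 ± 0.06 with DHT (adjusted p = 1.3e-05) and by 0.67 ± 0.06 with Dex 100 nM (adjusted p = 1.57e-07). CCN1, a relative of CCN3, rose by 0.65 ± 0.09 with Dex 100 nM (adjusted p = 6.69e-05). When enzalutamide was added to DHT, GCNT1 and MAOA were the 2 relatives called, both lower, by -1.09 ± 0.09 and -0.60 ± 0.06. Of all probes, 405 were called lower in that comparison. The kinases CAMK2D and CAMK2G that CAMK2N1 inhibits, the mucins MUC1 and MUC4 and the LTN1 partner NEMF were measured and were called in 0 of these comparisons.

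Another 12 genes known as androgen-repressed in prostate cells were listed, of which 10 were measured; the list was drawn up with earlier results of these arrays known, so it is no independent evidence. With DHT 2 of these were called lower, as were 247 of all 24607 probes, with a median of -0.17. They were NR3C1, which encodes the glucocorticoid receptor (-1.01 ± 0.19, adjusted p = 0.00327), and UGT2B15, an androgen-glucuronidating enzyme whose near-identical relatives may share its probe (-0.44 ± 0.09, adjusted p = 0.00996). With Dex 100 nM 1 was called, again NR3C1 (-1.30 ± 0.19, adjusted p = 0.000199), and NR3C1 also fell with Dex 100 nM under enzalutamide (-1.10 ± 0.19, adjusted p = 0.00168) and rose when enzalutamide was added to DHT (1.05 ± 0.19, adjusted p = 0.00243).

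By the likeness of the 8 group means, the genes nearest to CAMK2N1 were BAMBI (r = 0.99), OARD1 (0.98), LMO4 (0.98), ABCG1 (0.98) and STIM2 (0.97). The nearest to BDNF were LTN1 (0.99, ILMN_2077504), BCHE (0.99), GRB10 (0.99), INSIG2 (0.98) and PCED1B (0.98), so that 2 of the 5 belong to the 10 genes. The means include the DHT and vehicle groups that chose the 10 genes, so finding members near BDNF is partly built in. BAMBI and PCED1B were lower with DHT than with vehicle by 1.09 and 1.07 log2 units, and OARD1 by only 0.11, since the measure takes the shape of the profile and not its size.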

How the data were processed

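RNA of 24 LREX' cultures, 8 groups of 3, was profiled on Illumina expression beadchips. The authors deposited a mean signal intensity for each probe that was not normalized, per the file headers. Each comes with a deposited detection p-value against negative control beads, and with a deposited bead count and standard error over beads. The submitters' processing notes name GenomeStudio. A deposited table of normalized intensity values states no method and served as an alternative.

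Signals were background-corrected with limma 3.58.1 in R 4.3.3 (normexp, parameters inferred from the detection p-values, offset 16), then quantile normalized and log2-transformed. The filter asked for a detection p under 0.05 on 3 or more arrays. A linear model with 8 group means was run on all probes that passed (lmFit and eBayes) in 14 pairwise comparisons and 3 differences of differences, with Benjamini-Hochberg adjustment over the 24607 probes in each. A probe is called at an adjusted p under 0.05. For each gene the passing probe with the highest overall mean was used. Every adjusted p is from this limma fit. Probe genes come from the platform annotation, which gives 1 symbol for 30113 probes, several for 8 and none for 17202. Median bead numbers per probe were 18 to 21, and 3 arrays per group limit the precision.

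The members, the gene lists and the tests were chosen with earlier results of these data known. The named genes are the members, the lists of relatives, androgen-repressed genes and drug checks (at most 4 called genes of each list), and the 5 genes whose group means correlate best with CAMK2N1 and with BDNF. Alternatives were another background correction or offset, median scaling, the deposited table, other detection filters, 1 probe per gene, a fit of only the groups compared, the serial-number block and leaving out each array. The procedure was tested on simulated data. Slides are not named in the headers used here.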

Additional observations from a re-analysis of the deposited data

Results flagged for a closer look

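Enzalutamide's effect differed between the 2 hormones in 3 genes by the test of the difference itself (the effect beside Dex 100 nM minus the effect beside DHT, limma). For BDNF the difference was -1.0 ± 0.14 (SE, 3 arrays per group, adjusted p = 0.000308), for LTN1 -0.77 ± 0.17 (adjusted p = 0.0348) and for CAMK2N1 -0.55 ± 0.12 (adjusted p = 0.0385). Of all probes, 0.175% were called that way. The LTN1 call was lost in 9 and the CAMK2N1 call in 10 of the 12 fits that each omitted 1 array, and the contrast holds the DHT arrays that chose the genes. Groups of 3 arrays were not searched for single outlying arrays.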

How the results depend on the processing

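Each result was recomputed under 9 other settings and with each array left out, and no sign of a called member turned. The median DHT difference of the 10 genes, -0.78, was -0.91 in the deposited table and -0.58 both without background correction and with an offset of 50; with single arrays left out it lay between -0.82 and -0.74. The Dex 10 nM calls of BDNF and LTN1 against vehicle held when only the groups compared were fitted. That fit gave fewer calls in the comparisons that follow. The members called then numbered 5 (main 7) for Dex 100 nM against vehicle and 6 (main 8) for enzalutamide with DHT against DHT. They numbered 3 (main 5) for Dex 100 nM under enzalutamide, 0 (main 1) for Dex 10 nM under enzalutamide, 0 (main 4) for Dex 100 nM against DHT under enzalutamide, 0 (main 3) for Dex 10 nM against DHT, and 1 (main 3) for the difference between enzalutamide effects. Over all probes, that fit called 281 (main 716) for Dex 100 nM, 96 (main 281) for Dex 10 nM, 224 (main 566) for enzalutamide with DHT against DHT and 177 (main 485) for Dex 100 nM under enzalutamide. Dex 100 nM against DHT had 0 members called, and 2 with 1 probe per gene, 2 with a detection p under 0.01, 1 with an offset of 50 and 1 with the replicate block. Dex 10 nM against DHT had 3, and 5 with median scaling. The difference between enzalutamide effects had 3, and 5 with 1 probe per gene and 1 with no detection filter. Counts over all probes are not given for these other settings, or for the remaining fits of only the groups compared. The shifts therefore cannot be read as particular to the members. The cause of these shifts was not tested.

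With single arrays left out, members called ran from 5 to 7 for Dex 100 nM against vehicle, 2 to 2 for Dex 10 nM, 7 to 8 for enzalutamide with DHT against DHT, 3 to 4 for Dex 100 nM under enzalutamide, 1 to 2 for Dex 10 nM under enzalutamide, 3 to 4 for Dex 100 nM against DHT under enzalutamide, 1 to 3 for Dex 10 nM against DHT, 0 to 1 for Dex 100 nM against DHT and 1 to 3 for the difference between enzalutamide effects; counts of 0 elsewhere stayed at 0. Calls over all probes with single arrays left out are not given, so these ranges describe the members only. The serial numbers of the samples form 3 sets that no label ties to a batch. Deviations of samples in the same set correlated at -0.05 to 0.22 (median 0.09), above 0.1 in 30 of 84 pairs, against 2 of 168 pairs from different sets (median -0.02). Samples of a set thus deviated somewhat alike, but not every pair did, and the sets were not taken as pairs. With the set as a replicate block, 8 members were called for Dex 100 nM, 3 for Dex 10 nM, 9 for enzalutamide with DHT against DHT and 5 for Dex 10 nM against DHT. The calls over all probes in that fit are not given, so these counts do not show a gain particular to the members. A slide block was not run, since the headers name no slide. Signals near background limit ST8SIA4, GCNT3 and MUC13, whose standard errors of 0.17 to 0.19 are the widest of the 10.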
